A study of Rattus norvegicus and Bos taurus with 6 samples.

Results

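The nuclei described here are cow nuclei above upper limits taken from the study's quality control, with more than 15000 unique molecular identifiers (UMIs, counts of RNA molecules) or more than 4500 detected genes. Both values were counted from the deposited matrix of the cow white adipose tissue (WAT) library. The study's methods word the first limit in reads, and it was applied here to UMIs, each of which stood for several reads on average. The rule chose 276 of the 2297 cow nuclei, or 12.0% (95% exact binomial interval, 10.7 to 13.4), out of 19424 nuclei in the 6 libraries of the series. The other 2021 cow nuclei lay at or below both limits and are called nuclei below the limits here.

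The library came from flank subcutaneous WAT of Holstein dairy cattle, labeled female, normal and snap frozen, and lactating in the study's methods. It was made with the Parse Evercode WT v3 kit, which barcodes fixed nuclei in plates of wells over several rounds, and it belonged to batch 2. The other 5 libraries were from brown and white fat of Dahl SS rats. The cow library had no replicate, and the number of animals in it is not given in the sources used here, so no p-value is given. All intervals cover counting error only.

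Adipose tissue holds lipid-storing adipocytes, adipose stem and progenitor cells (ASPCs) that lay down matrix and give rise to new adipocytes, the endothelial and mural cells of its vessels, and resident macrophages and lymphocytes. A nucleus can yield many UMIs because it holds much RNA. A barcode shared by nuclei of different cells also yields many UMIs, and then carries the markers of both cell classes. The deposited values allow the marker content of high-UMI nuclei to be compared with that of the other nuclei at equal UMIs.

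The UMI and gene totals were used by the rule and describe the nuclei only. The 276 nuclei held 50.7% of the 16827260 UMIs of the cow library. Their UMIs ranged from 10233 to 162490 with a median of 22784, and the nuclei below the limits had a median of 3021. Their detected genes ranged from 4091 to 14007 with a median of 6054.5, against 1515 below the limits. Both limits were passed by 230 nuclei, the gene limit alone by 43 and the UMI limit alone by 3. The nuclei nearest to the UMI limit had 15023, 15086 and 15087 UMIs inside it and 14936, 14861 and 14699 outside it. Those nearest to the gene limit had 4510, 4533 and 4535 genes inside it and 4497, 4496 and 4479 outside it. Neither limit fell in a gap of the distribution.

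**Figure D1:**
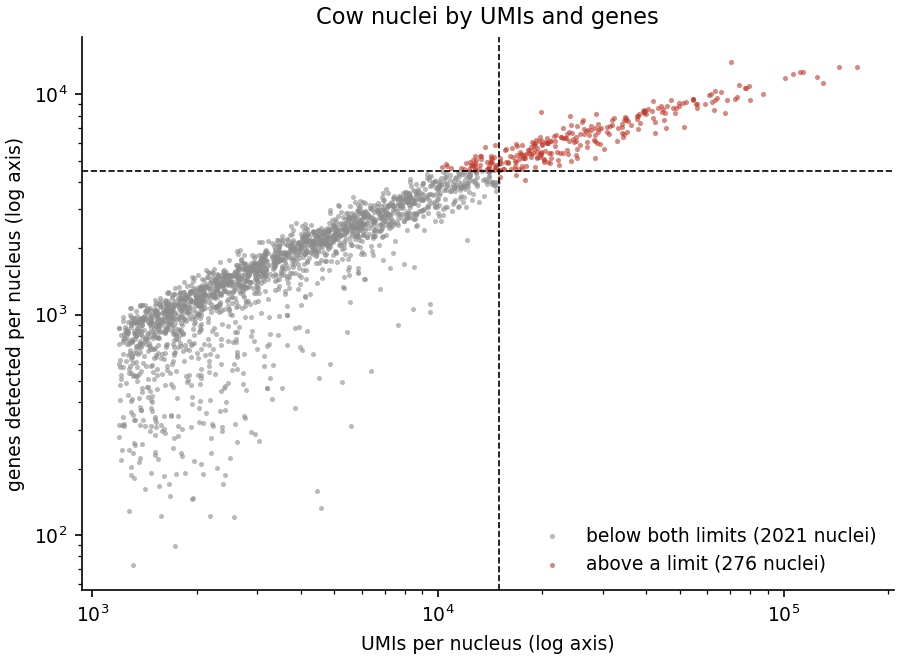
Detected genes against UMIs for each of the 2297 cow nuclei, both on log axes, with the limits of 15000 UMIs and 4500 genes as lines. The 276 nuclei above the limits continue the band of the 2021 nuclei below them without a gap.

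The other libraries of the series held few nuclei above the same limits. The rat brown fat library held 24 of 2699 nuclei (0.889%, 0.571 to 1.32), the thoracic aortic perivascular library 13 of 2708 and the mesenteric perivascular Parse library 4 of 3028. The retroperitoneal library held 0 of 2805, and the mesenteric library made on the 10x platform held 0 of 5887. The cow library also had the most UMIs, so a fixed limit meets libraries of unlike depth. No cow barcode was shared with any of the rat Parse libraries. The barcode includes the well of the first barcoding round, which marks the sample. This count was therefore fixed by the design and says nothing about nuclei that share a barcode.

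The nuclei above had a median of 3.72 reads per UMI (3.64 to 3.81) and those below 3.59 (3.58 to 3.61), and these intervals did not overlap. The median share of UMIs from mitochondrially encoded genes was 0.0104% (0.00873 to 0.0126) above and 0.00967% (0 to 0.0125) below the limits, before thinning. The 2 sublibraries, aliquots of nuclei barcoded together in the last round, gave 137 of 1143 and 139 of 1154 nuclei above the limits. The 2 wells of the first barcoding round gave 150 of 1050 (14.3%, 12.2 to 16.5) and 126 of 1247 (10.1%, 8.49 to 11.9). The doublet caller Scrublet marked 1 of the 2297 nuclei and none of the 276, a share too low to show that it worked on these counts. Its median score was 0.0904 above and 0.0463 below the limits, on counts that were not thinned.

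To set nuclei of unlike depth side by side, UMIs were drawn at random without replacement from each nucleus down to 1000, which left out no cow nucleus. A nucleus was called for the class with most marker UMIs among 7 classes. The marker lists were adipocyte, ASPC, endothelial, mural, macrophage, lymphocyte and Schwann, and 87 of their 90 genes were found by symbol. The adipocyte marker ADIPOQ, which encodes the hormone adiponectin, was not matched.

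Adipocytes were the class most over-represented above the limits. At 1000 UMIs, 88 of the 276 nuclei, or 31.9% (26.4 to 37.7), were called adipocyte, against 10.5% (9.19 to 11.9) of the nuclei below the limits. ASPCs made up 31.5% (26.1 to 37.4) above and 29.5% below, and the intervals overlapped. Endothelial nuclei were fewer above the limits, at 18.5% (14.1 to 23.6) against 27.6% (25.7 to 29.6). Mural nuclei, the pericytes and smooth muscle cells of vessels, were 2.90% above (8 nuclei, 1.26 to 5.63) against 10.9% below. Macrophages were 9.78% above and 9.95% below. No nucleus above the limits was called lymphocyte, which allows a share of up to 1.33%, and 26 nuclei below the limits (1.29%) were. A class could not be called for 15 nuclei above and 206 below the limits.

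Read the other way, 29.3% (24.2 to 34.8) of all adipocyte-called cow nuclei lay above the limits. The share was 12.7% for ASPC-called nuclei, 11.8% for macrophage-called nuclei, 8.37% for endothelial-called nuclei and 3.51% (1.53 to 6.80) for mural-called nuclei. Adipocyte-called nuclei above the limits had a median of 36901 UMIs (30731 to 42357). Those of the other classes had medians of 20604 for ASPC, 20408 for macrophage, 19345 for endothelial and 17283.5 for mural. The rule chose these nuclei by UMIs or genes, so the medians describe them only.

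The adipocyte share grew with depth among the nuclei above the limits. They were divided by UMIs into 4 groups of 69. The adipocyte share was 8.70% (3.26 to 18.0) in the group with fewest UMIs, 18.8% and 36.2% in the next groups, and 63.8% (51.31 to 75.01) in the group with 37647 UMIs or more. Below the limits the share had no such course. It was 15.1% among nuclei of 1191 to 1998 UMIs, 8.77% at 2000 to 3993, 7.02% at 4001 to 6999 and 11.0% at 7037 UMIs and more. Among the nuclei of 10233 to 17155 UMIs above the limits, the interval of the adipocyte share included all 4 of these values. In the same groups above the limits the ASPC share was 40.6%, 34.8%, 29.0% and 21.7%, and the macrophage share was 15.9%, 10.1%, 8.70% and 4.35%. The excess of adipocytes held in both sublibraries when nuclei were thinned to 7000 UMIs, at 35.8% against 11.0% and 30.9% against 9.82%. It also held in both first-round wells, at 38.7% against 16.5% and 27.0% against 5.95%.

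**Figure D2:**
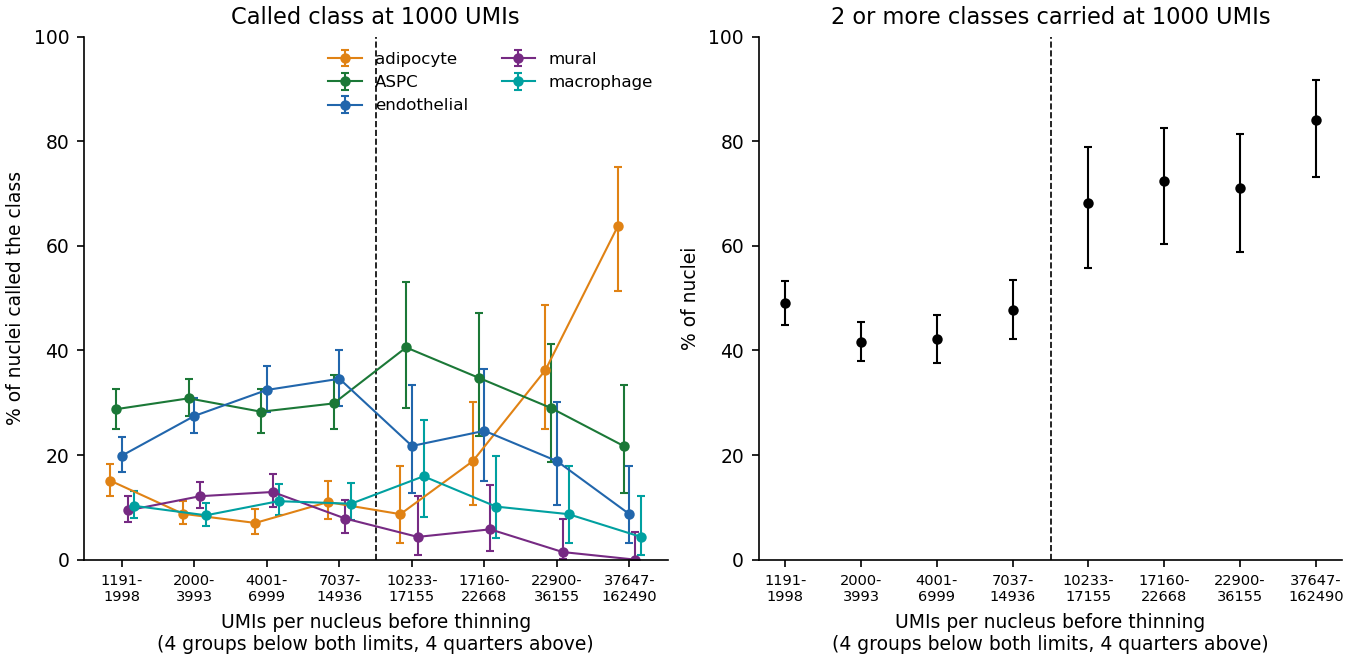
Share of nuclei in percent, called for each class (left) or carrying 2 or more classes (right), in 4 depth groups below the limits and 4 groups of 69 nuclei above them, all thinned to 1000 UMIs, with 95% exact binomial intervals. The adipocyte share reaches 63.8% in the deepest group, and no group below the limits exceeds 15.1%.

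The 10 nuclei with most UMIs show how unlike these nuclei were. Each was thinned to 7000 UMIs, and its marker UMIs were given as a percentage of the level of that class, meaning the mean in nuclei below the limits called for the class. The nucleus with 129354 UMIs carried adipocyte markers at 166% of their level, ASPC markers at 23.2% and every other class below 10%. The nucleus with 100927 UMIs had 92.7% of the adipocyte level and 27.6% of the ASPC level. In contrast, the nucleus with 111438 UMIs carried 66.7% of the endothelial, 39.8% of the ASPC, 36.5% of the adipocyte and 33.3% of the macrophage level. The deepest nucleus, with 162490 UMIs, had 64.4% of the macrophage level and between 17.3% and 21.7% of the ASPC, endothelial and mural levels. The second deepest, with 143972 UMIs, had 89.5% of the ASPC level, 37.2% of the adipocyte and 37.0% of the endothelial level. Of these 10 nuclei, 5 were called adipocyte.

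Markers of more than 1 class were more common above the limits at equal UMIs. A class counted as carried when a nucleus had at least 2 UMIs from at least 2 of its markers. At 1000 UMIs, 73.9% (68.3 to 79.0) of the nuclei above the limits carried at least 2 classes, against 44.8% (42.6 to 47.0) below. The share below the limits did not climb with depth, at 49.0%, 41.7%, 42.1% and 47.8% in the 4 depth groups. Above them it was 68.1%, 72.5%, 71.0% and 84.1% in the 4 groups of 69. The excess was present in every class with enough nuclei to judge. It was 80.7% against 55.7% for adipocyte-called nuclei, 70.1% against 42.0% for ASPC-called and 70.6% against 41.4% for endothelial-called. For macrophage-called nuclei it was 63.0% (42.4 to 80.6) against 42.3% (35.4 to 49.4), with overlapping intervals. Adipocyte-called nuclei were spread unlike over clusters made at 1000 UMIs. The cluster mostly called adipocyte held 205 of them, 79 from above the limits. A cluster most often called ASPC, with no adipocyte marker among its 10 leading genes, held 46, and 0 were from above. This bears on every comparison of adipocyte-called nuclei at 1000 UMIs.

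A few UMIs of a foreign marker can also come from RNA free in the suspension, so the level of the further class was measured at 7000 UMIs, a depth chosen after the data were seen. This depth kept all 276 nuclei above the limits and 318 of those below. At least 25% of the level of 2 or more classes was reached by 60.9% (54.8 to 66.7) of the nuclei above the limits and 34.3% (29.1 to 39.8) of those below. At 50% of the level of both, the shares were 15.9% (44 nuclei, 11.8 to 20.8) and 7.55% (24 nuclei, 4.90 to 11.0). The median level of the second class was 31.4% (28.7 to 34.6) above and 16.1% (14.5 to 18.5) below the limits. The median level of the first class went the other way, at 79.0% (74.8 to 84.4) above and 91.5% (86.6 to 97.5) below. Most nuclei above the limits thus had less than 50% of the level of any class but their first. At this depth adipocyte-called nuclei were 33.3% above and 10.4% below the limits, and endothelial-called 19.6% and 35.5%. The part of this mix in the pooled shares and medians was not tested.

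With the nuclei divided at 15000 UMIs alone, the shares at 50% were 18.5% (13.7 to 24.0) over that limit and 9.14% (6.38 to 12.6) under it. The 44 nuclei with 2 classes at 50% had a median of 23564.5 UMIs (19279 to 28810), and the other nuclei above the limits had 22585 (20582 to 25190), with overlapping intervals. These 44 nuclei were spread over the 4 groups by UMIs, with 9, 11, 15 and 9 of 69. In the sublibraries the shares at 50% were 16.8% (11.0 to 24.1) against 7.097% (3.60 to 12.3) and 15.1% (9.60 to 22.2) against 7.98% (4.31 to 13.3). In the first-round wells they were 14.0% (8.88 to 20.6) against 9.77% (5.31 to 16.1) and 18.3% (11.9 to 26.1) against 5.95% (3.01 to 10.4), so the intervals overlapped in both sublibraries and in the first of these wells.

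**Figure D3:**
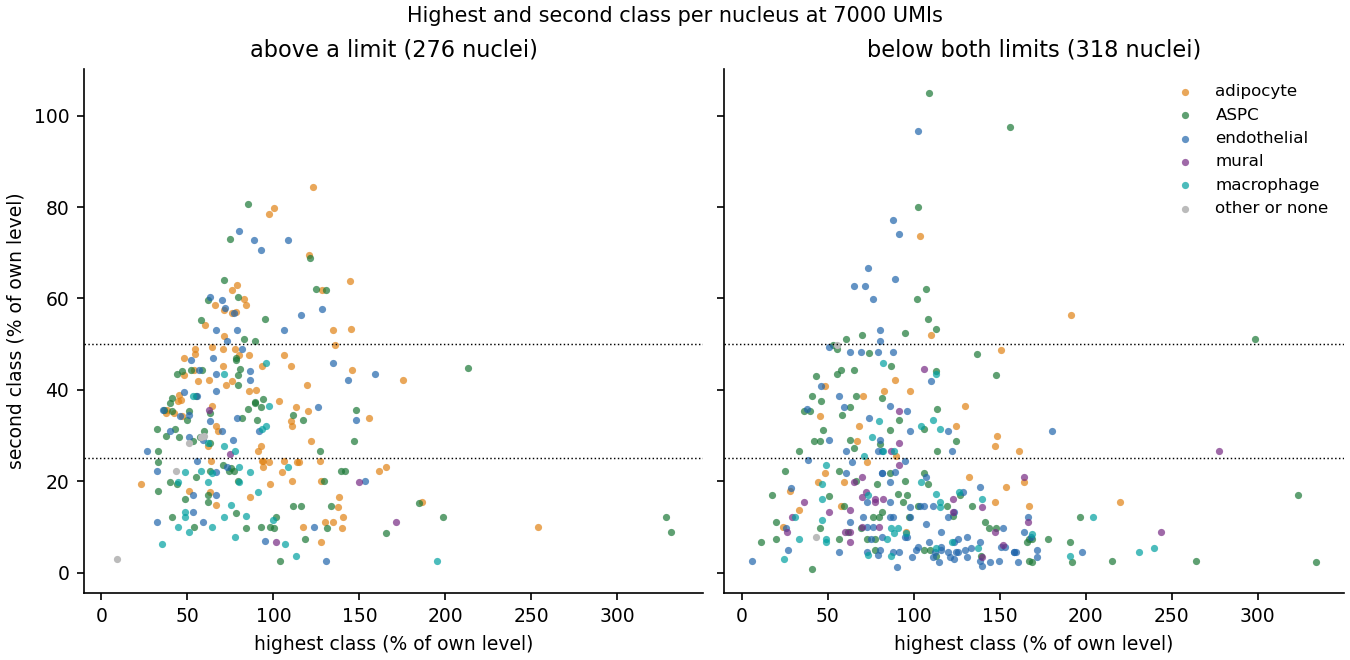
Marker level of the second class against that of the first class for each nucleus thinned to 7000 UMIs, in percent of the level of that class in nuclei below the limits, in separate panels for the 276 nuclei above and the 318 below the limits. The medians of the second class are 31.4% above and 16.1% below the limits.

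At 25% of the level, the 3 pairs of classes that met most often above the limits included ASPC. Adipocyte and ASPC markers were both at 25% of their level or more in 53 nuclei above the limits (19.2%, 14.7 to 24.4), against 23 below (7.23%, 4.64 to 10.7). At this depth 92 of the 276 nuclei above and 33 of the 318 below the limits were called adipocyte. Those 33 already had 27.2% of the ASPC level on average. The part of the called classes in the pair counts was not tested. ASPC and macrophage markers met in 42 nuclei (15.2%) against 22 (6.92%). ASPC and endothelial markers met in 34 (12.3%) against 18 (5.66%). Adipocyte and macrophage markers met in 23 (8.33%, 5.36 to 12.2) against 5 (1.57%, 0.512 to 3.63). Endothelial and mural markers met in 24 (8.70%) and 25 (7.86%), with nearly equal shares. At 50%, adipocyte and ASPC markers met in 12 nuclei above and 4 below the limits, and endothelial and mural markers came next, in 8 and 8. ASPC and macrophage markers met in 7 (2.54%) and 7 (2.20%), with nearly equal shares. ASPC and endothelial markers met in 6 and 1, and adipocyte and macrophage markers in 5 and 0.

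Among adipocyte-, ASPC-, endothelial- and macrophage-called nuclei, those above the limits had somewhat less of their own markers per UMI. In most cases they had more of the markers of the other classes. When all nuclei were clustered at 1000 UMIs, a cluster of 67 nuclei, of which 52 were called endothelial and 19 lay above the limits, had the mural marker TRPC6 and no endothelial marker among its 10 leading genes. TRPC6 encodes a calcium-permeable channel. The endothelial levels in the next paragraph are given without that cluster.

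Endothelial-called nuclei above the limits (38 nuclei) had 74.3% (71.4 to 77.3) of the endothelial marker level of the 87 below. They had 19.7% (18.3 to 21.2) of the ASPC level against 8.38% (7.76 to 9.04), 22.9% (20.7 to 25.3) of the macrophage level against 5.49% (4.78 to 6.27), and 12.4% (10.8 to 14.3) of the mural level against 4.15% (3.52 to 4.86). The adipocyte level was 5.12% against 2.15%. In these nuclei at least 25% of the level of 2 classes was reached by 27 of 38 (71.1%, 54.1 to 84.6), against 12 of 87 (13.8%, 7.34 to 22.9). The intervals overlapped for the other classes at 25%, with 67.4% against 54.5% of adipocyte-called, 58.6% against 44.3% of ASPC-called and 27.3% against 24.4% of macrophage-called nuclei. At 50% the shares were 19.6% against 9.09%, 13.8% against 11.3%, and 0 of 33 (0 to 10.6%) against 0 of 41 nuclei (0 to 8.60%), and 6 of 38 against 2 of 87 for endothelial-called nuclei. With the cluster kept, CD163, a scavenger receptor of resident macrophages, had 1.59 UMIs per nucleus (1.27 to 1.97) in the 54 endothelial-called nuclei above the limits and 0.18 (0.11 to 0.27) in the 113 below. CSF1R, the receptor on which macrophages depend for survival, had 1.22 against 0.27. In the same 54 nuclei, all 14 ASPC markers and 12 of 13 macrophage markers were higher than below the limits. The median ratio of all genes tested in these nuclei was 1.05.

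Adipocyte-called nuclei above the limits (92 nuclei) kept 92.9% (91.2 to 94.7) of the adipocyte level set by 33 nuclei below. Their macrophage level was 18.7% (17.4 to 20.01) against 9.89% (8.35 to 11.6), and all 13 macrophage markers were higher. Without the nuclei of a cluster mostly called macrophage, which held 7 of the 92 and none of the 33, it was 15.5% (14.3 to 16.8) against 9.89%. VSIG4, a complement receptor of resident macrophages, had 2.17 UMIs per nucleus (1.88 to 2.50) against 1.06 (0.74 to 1.48). The ASPC level was 30.7% (29.5 to 31.9) against 27.2% (25.4 to 29.2), with 12 of 14 ASPC markers higher and 2 lower. The median ratio of all genes tested in adipocyte-called nuclei was 1.05. LAMA2, a laminin chain, had 5.09 UMIs per nucleus (4.64 to 5.57) against 1.55 (1.15 to 2.03). COL3A1, a fibrillar collagen and the marker that supplies most ASPC marker UMIs, had 11.4 (10.8 to 12.2) against 15.2 (13.9 to 16.6).

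ASPC-called nuclei above the limits (87 nuclei) had 87.2% (85.2 to 89.3) of the ASPC level of the 97 below. The endothelial level was 14.9% (14.0 to 15.8) against 8.16% (7.54 to 8.82), with 14 of 15 endothelial markers higher. The median ratio of all genes tested in ASPC-called nuclei was 1.05. ADGRL4, an adhesion receptor of endothelium, had 1.00 UMI per nucleus (0.80 to 1.23) against 0.32 (0.22 to 0.45). EMCN, a sialomucin of capillary and venous endothelium, had 0.66 (0.50 to 0.85) against 0.19 (0.11 to 0.29). The macrophage level was 16.7% against 12.8%, and the mural level 15.5% against 12.5%. Macrophage-called nuclei above the limits (33 nuclei) had 77.5% (73.1 to 82.1) of the macrophage level of the 41 below, and their ASPC level was 12.0% against 7.28%. The 5 mural-called nuclei above the limits had 112% (98.0 to 127) of the mural level of the 32 below. They were too few to describe further.

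**Figure D4:**
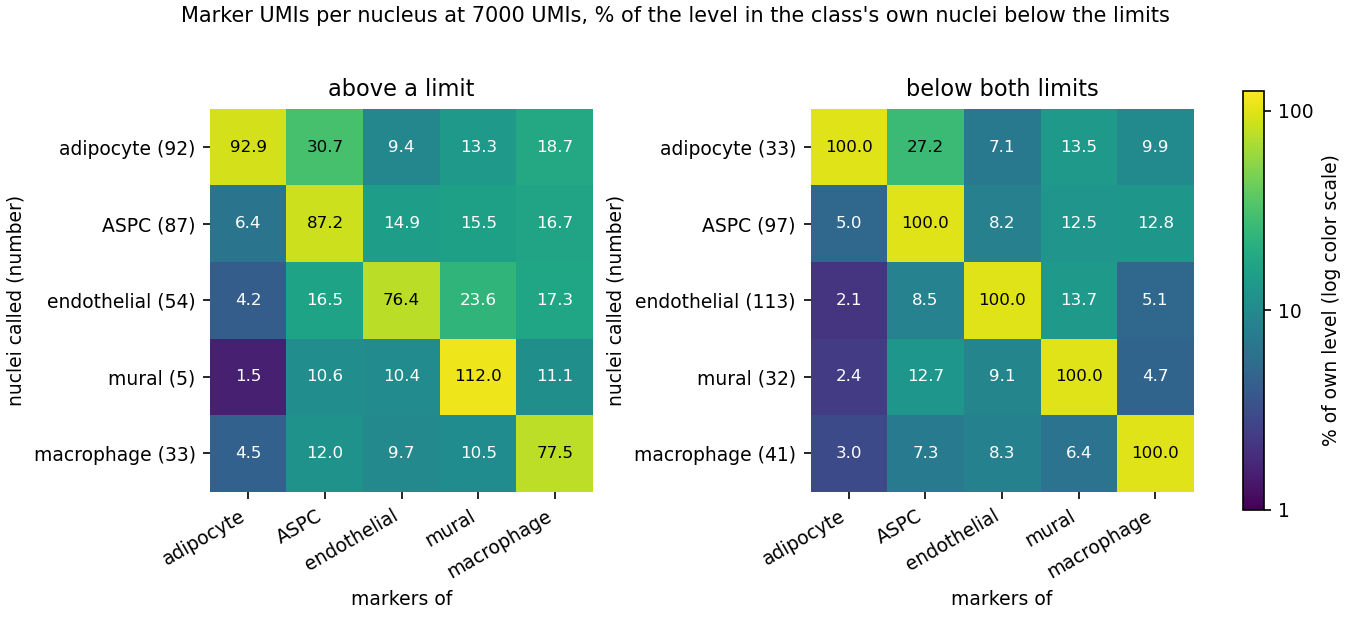
Marker level of each class, in percent of its level in nuclei below the limits called for that class, as a heat map with a log color scale, by called class of the nucleus (rows, number of nuclei in brackets), above and below the limits, at 7000 UMIs with all clusters kept. In endothelial-called nuclei the macrophage level is 17.3% above and 5.15% below the limits.

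At equal UMIs, clustering gave 12 clusters, and each held nuclei from above the limits, from 1 of 74, 1 of 55 and 2 of 284 in the clusters with fewest. No cluster was more than 90% from above the limits. At a finer resolution, 2 of 18 clusters held none of them, and at a coarser one each of 9 held some. The cluster mostly called adipocyte held 89 of them among 222 nuclei (40.1%, 33.6 to 46.9), the highest share of any cluster. The cluster mostly called macrophage held 59 among 281 nuclei. Of these 59 nuclei, 24 (40.7%, 28.1 to 54.3) were called macrophage, 10 ASPC, 8 endothelial and 7 adipocyte, and 8 had no call. Of the 222 nuclei below the limits in the same cluster, 168 (75.7%, 69.5 to 81.2) were called macrophage. The 7 adipocyte-called nuclei above the limits there averaged 42.7% of the adipocyte and 54.9% of the macrophage level. Nuclei below the limits in this cluster also carried 2 classes. The 10 ASPC-called ones with at least 7000 UMIs averaged 62.4% of the ASPC and 65.5% of the macrophage level, against 38.0% and 36.2% in the 10 above. The 4 endothelial-called ones averaged 26.5% of the endothelial and 42.2% of the macrophage level, against 40.3% and 33.3% in the 8 above. With this cluster and the 67-nucleus cluster both left out, 33 of 198 nuclei above the limits (16.7%, 11.8 to 22.6) and 12 of 235 below (5.11%, 2.67 to 8.75) had 2 classes at 50%.

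The nuclei above the limits also had more distinct genes at equal UMIs, a measure that the gene limit helps to set. At 1000 UMIs they had a median of 724.5 genes (718 to 733) against 668 (662 to 674), and at 7000 UMIs 3186.5 (3156 to 3238) against 2892 (2850 to 2927). With the nuclei divided at 15000 UMIs alone, the medians at 1000 UMIs were 718 and 671. At 7000 UMIs the adipocyte-called nuclei had 3123 (3077 to 3192) against 2795 (2580 to 2984). The 44 nuclei with 2 classes at 50% had 3195.5 genes and the other nuclei above the limits 3186.

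The 4 genes with more than 1% of all cow UMIs, each known only by its Ensembl identifier, took a median of 12.5% (11.6 to 13.2) of UMIs above and 16.1% (15.5 to 16.7) below the limits. The first of them, ENSBTAG00000066082, with 11.1% of all cow UMIs, had 83308 CPM (UMIs of a gene scaled to a fixed total per group) above and 168864 CPM below the limits at 1000 UMIs. The ratios of ENSBTAG00000057590 and ENSBTAG00000052369 were 0.57 each, while ENSBTAG00000061247 was higher above the limits, at 24641 against 18087 CPM (1.36, 1.33 to 1.40). The median ratio of all genes tested was 1.18 (0.24 on the log2 scale), and ratios over all nuclei at 1000 UMIs are read against that value. Of the 10 genes with most UMIs above the limits, 6 were unnamed, and the others were EBF1, ACACA, LRMDA and FASN. UMIs per gene grow with gene length in nuclear RNA, and these genes are not ranked here.

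At 1000 UMIs, 182 of the 4230 genes tested (4.30%) had at least 2-fold higher CPM above the limits, and 86 (2.03%) had at most 0.5 times the CPM below. With the 4 abundant genes left out, all nuclei thinned to 700 UMIs and 154 shallower nuclei below the limits dropped, 73 genes were higher and 123 lower. The share of higher genes among those past the fold was then 37.2% rather than 67.9%, and which of these 3 changes turned the balance was not tested. Another random draw gave 181 and 81 genes, of which 92 and 23 were among the first set. The lowest genes in particular changed with the draw. SPARCL1, a matricellular protein of vessels, had 2 UMIs above against 163 below (ratio 0.13, 0.01 to 0.33), and SLC8A3, a sodium-calcium exchanger, had 1 against 100 (0.14, 0.00 to 0.42). At 7000 UMIs the ratio of SPARCL1 was 0.38 (0.28 to 0.51) and that of SLC8A3 was 1.05 (0.72 to 1.51). The 12 lowest genes at 1000 UMIs lay between 0.13 and 0.31. Within the called classes at 1000 UMIs, the genes at least 2-fold higher were 89 of 1177 for adipocyte-called nuclei (7.56%, with 1.36% at most 0.5 times as high) and 304 of 3033 for ASPC-called nuclei (10.0%, with 1.91%). They were 326 of 2861 for endothelial-called nuclei (11.4%, with 4.51%) and 62 of 959 for macrophage-called nuclei (6.47%, with 5.11%). The median ratios of all genes tested were 1.34, 1.298, 1.15 and 1.17 in adipocyte-, ASPC-, endothelial- and macrophage-called nuclei. The 1 UMI added to each sum can also raise ratios over unequal numbers of nuclei, and its part here was not tested. Some of these balances of higher and lower genes depended on the setting. With at least 400 UMIs per gene, 0 genes were higher in each of these classes, and 6, 3, 6 and 0 were lower. Only 36, 100, 121 and 14 genes were then tested. Against nuclei below the limits with at least 7000 UMIs, 13 genes were higher and 29 lower in endothelial-called nuclei. In adipocyte-called nuclei 14 were higher and 12 lower. At 500 UMIs 18 were higher and 21 lower in macrophage-called nuclei. With all clusters kept, these shares were smaller in each class at 7000 UMIs, and the genes are described there. That comparison also used a minimum of 100 rather than 40 UMIs per gene and only the 318 deep nuclei below the limits.

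Of the 12 genes with the highest ratios at 1000 UMIs, DGAT2, GPAM, GK, GPAT3 and ELOVL5 were in the lists of lipogenesis or triglyceride synthesis and ACSL1 was in that of fatty acid uptake. DGAT2, the acyltransferase of the last step of triglyceride synthesis, had 797 CPM above and 186 below the limits, a ratio of 4.30 (3.62 to 5.09). GPAM, the mitochondrial acyltransferase of the first step, had a ratio of 3.90 (3.47 to 4.36). ACSL1, which activates fatty acids, had 3.50 (3.03 to 4.02), and ELOVL5, an elongase of polyunsaturated fatty acids, had 3.41 (2.44 to 4.63). The others among the 12 were PRR5L, GK, B3GNT6, GPAT3, ADAMTS16, PFKFB4, HACD2 and SLC22A23, with ratios between 3.13 and 4.17. GK phosphorylates glycerol, GPAT3 is a further acyltransferase of triglyceride synthesis, and HACD2 takes part in fatty acid elongation.

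The comparison at 7000 UMIs set the 276 nuclei against the 318 deep nuclei below the limits, and its median ratio was 1.06. There 96 of 6625 genes (1.45%) were at least 2-fold higher and 56 (0.845%) at most 0.5 times as high. Without the 67-nucleus cluster and the cluster mostly called macrophage, 156 (2.94%) and 117 (2.21%) of 5303 genes were. A second random draw shared 80 of the higher and 35 of the lower genes. FASN, the fatty acid synthase, had 1884 CPM above and 610 below the limits, a ratio of 3.09 (2.90 to 3.29). DGAT2 had 2.94 (2.65 to 3.27), and PRR5L, a regulator of mTOR complex 2, had 3.16 (2.70 to 3.75). DECR1, an enzyme of the oxidation of unsaturated fatty acids, had 2.90 (2.24 to 3.85), and INSIG1, which holds back sterol synthesis, had 2.88 (2.23 to 3.82). LGALS12, a galectin of lipid droplets, had 2.90 (2.12 to 4.11) and ACOX2, a peroxisomal oxidase, 3.06 (2.34 to 4.11). TMEM266, XRCC3, COLQ, STS and HOOK2 made up the rest of the 12, each at 61.1 CPM or less above the limits.

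Of the 12 lowest genes at 7000 UMIs, BTNL9 alone was in a list of vessel genes. PDZRN4 had 26.4 CPM above and 109 below the limits, a ratio of 0.25 (0.18 to 0.33), and RCAN2, a calcineurin regulator, had 0.26 (0.21 to 0.31). SYNM, an intermediate filament protein of muscle, had 0.35 (0.24 to 0.49), and SORBS2, an adaptor of the contractile apparatus, had 0.38 (0.30 to 0.47). PODXL, a sialomucin of vascular endothelium, had 0.31 (0.21 to 0.44). NOS3, the endothelial nitric oxide synthase, had 0.39 (0.24 to 0.59), and BTNL9, which is enriched in capillary endothelium, had 0.40 (0.35 to 0.45). WIPF3, NEBL, FAM107A and the unnamed ENSBTAG00000038652 were between 0.39 and 0.40. In this comparison adipocyte-called nuclei were 33.3% above and 10.4% below the limits, endothelial-called 19.6% and 35.5%, and mural-called 1.81% and 10.1%. The part of these shares in the ratios was not tested over all genes.

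The lists of lipid synthesis and lipolysis were higher over all nuclei but not, in sum, within adipocyte-called nuclei. Over all nuclei at 7000 UMIs, 10 of the 12 adipocyte markers tested were at least 2-fold higher above the limits, and the summed markers had a ratio of 2.57 (2.49 to 2.65). Of all genes tested, 1.45% were at least 2-fold higher over all nuclei and 3.81% within adipocyte-called nuclei. Within adipocyte-called nuclei none of 11 markers was, and the sum had 0.93 (0.90 to 0.96). The call itself used these markers, and FASN, SCD and ELOVL6 are also in the list of lipogenesis, DGAT2, GPAM and PCK1 in that of triglyceride synthesis, and LIPE, PLIN1, PDE3B and CIDEC in that of lipolysis. The values within adipocyte-called nuclei are therefore fixed in part by the call, above and below the limits, and are given as a description. De novo lipogenesis had 8 of 11 genes higher over all nuclei, with a median ratio of 2.33 and a summed ratio of 2.54 (2.47 to 2.62), but a summed ratio of 1.01 (0.98 to 1.05) within adipocyte nuclei. Triglyceride synthesis had 4 of 9 higher and a sum of 2.42 (2.32 to 2.53), against 0.88 (0.84 to 0.92) within. Lipolysis had 6 of 9 higher and a sum of 1.58 (1.496 to 1.66), against 0.74 (0.69 to 0.80) within. SCD, the stearoyl desaturase and one of the calling markers, had 807 CPM against 347 over all nuclei and 2189 against 2416 within adipocyte nuclei, where its ratio was 0.91 (0.82 to 1.00).

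**Figure D5:**
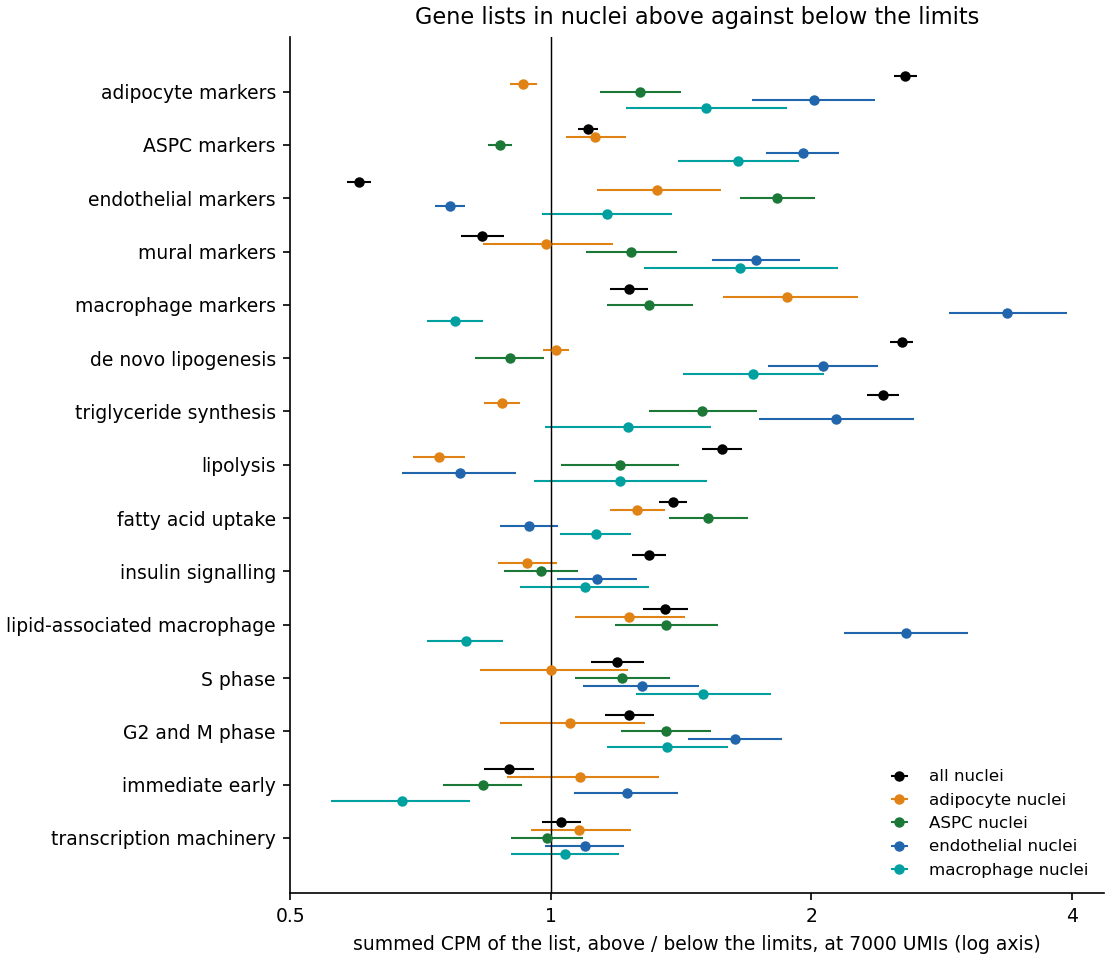
Ratio of summed CPM above to below the limits at 7000 UMIs for gene lists, over all nuclei and within adipocyte-, ASPC-, endothelial- and macrophage-called nuclei with all clusters kept, on a log axis with 95% exact intervals. Adipocyte markers, de novo lipogenesis and triglyceride synthesis lie between 2.42 and 2.57 over all nuclei and between 0.88 and 1.01 within adipocyte-called nuclei.

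Of the lipid genes tested within adipocyte-called nuclei, 1 of 10 in de novo lipogenesis was at least 2-fold higher. In triglyceride synthesis 1 of 6 was at most 0.5 times as high, and none of 7 in lipolysis passed either fold. Of all genes tested in these nuclei, 3.81% were at least 2-fold higher and 0.469% at most 0.5 times as high. MGLL, the monoglyceride lipase, had 1151 CPM above and 2043 below the limits (0.56, 0.50 to 0.63), while over all nuclei its ratio was 1.04. AGPAT2, an acyltransferase of phosphatidic acid synthesis, had 155 against 338 (0.46, 0.34 to 0.63), and ELOVL6, an elongase of saturated fatty acids, had a ratio of 0.63 (0.56 to 0.72). ELOVL5 was higher, at 373 against 173 (2.11, 1.54 to 3.09), and ACSL1 had a ratio of 1.39 (1.26 to 1.55). All of these rest on 33 nuclei below the limits.

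Within adipocyte-called nuclei, 65 of 1704 genes (3.81%) were at least 2-fold higher and 8 (0.469%) at most 0.5 times as high, and a second draw shared 29 and 4 of them. The highest outside the marker lists was PID1, an inhibitor of insulin signaling, with 239 CPM against 51.9 (4.28, 2.56 to 9.10). ADAMTSL3, an ADAMTS-like matrix protein, had 3.64 (2.20 to 7.49), ABI3BP, a matrix-binding protein, had 3.52 (2.32 to 6.15), and GSN, the actin-severing gelsolin, had 3.01 (1.97 to 5.27). ABI3BP had a UMI in 69.6% of the nuclei above and 33.3% of those below the limits. CYP27A1, LDB2, CTNND1 and the unnamed ENSBTAG00000060258 followed, between 2.84 and 2.97. The lowest was CTNNA3, an alpha-catenin, with 127 against 364 (0.35, 0.26 to 0.48). NMNAT2, TRABD2B, AGPAT2, CCDC3, FLRT2, SLC24A3 and COL6A1 were between 0.43 and 0.49.

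Within endothelial-called nuclei without the 67-nucleus cluster, 98 of 1656 genes (5.92%) were at least 2-fold higher and 76 (4.59%) at most 0.5 times as high. With the cluster kept the counts were 94 (4.13%) and 27 (1.19%) of 2274, and a second draw shared 70 and 13 of them. ITGAM, the integrin chain CD11b of myeloid cells, had 346 CPM against 46.0 (7.34, 4.88 to 11.9), with a UMI in 50.0% against 12.6% of nuclei. WDFY4, which takes part in cross-presentation by dendritic cells, had 4.91 (3.28 to 7.72). VCAN and FN1, the matrix proteins versican and fibronectin, had 6.55 (4.32 to 10.7) and 5.34 (3.55 to 8.50). NOTCH2, a receptor, had 353 against 41.1 (8.37, 5.49 to 14.0), and SLC9A9, PDE1C and TIAM1 were between 4.75 and 5.32. NOTCH4, the endothelial Notch receptor, had 71.4 CPM against 271 (0.28, 0.15 to 0.42), RBP7, a retinol-binding protein of capillaries, had 0.25 (0.12 to 0.41) and PODXL had 0.22 (0.09 to 0.38). SYNM, RAPGEF3, IGF2, LNX1 and WIPF3 were between 0.22 and 0.30. With the cluster mostly called macrophage left out as well and the nuclei called anew, 29 nuclei above and 84 below the limits were called endothelial rather than 38 and 87, and the endothelial marker level above the limits was 84.5% rather than 74.3%. Among these 29 and 84 nuclei, ITGAM had 118 CPM against 17.0 (6.58, 3.20 to 16.3). The ratios of NOTCH2, VCAN and SLC9A9 were smaller than among the 38 and 87 nuclei, at 6.403, 3.90 (2.28 to 6.89) and 4.39. Those of FN1, WDFY4 and TIAM1 were larger, at 8.02 (5.15 to 13.5), 6.07 and 5.31. PDE1C had 4.88 against 4.87, and the 8 genes that were lowest among the 38 and 87 nuclei lay between 0.15 and 0.37. The remaining endothelial clusters were mixed unlike above and below the limits, counted over nuclei of all depths at the shallower thinning. In the cluster led by BTNL9, 12 of 375 endothelial-called nuclei lay above the limits. In the cluster led by ITGB4, with VWF among its leading genes, 10 of 87 did. The part of this mix in the ratios and in the endothelial marker level was not tested.

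Within ASPC-called nuclei, 21 of 2582 genes (0.813%) were at least 2-fold higher and 6 (0.232%) at most 0.5 times as high. A second draw shared 10 and 2 of them. Without the 67-nucleus cluster the counts were 19 and 7 of 2493. With the cluster mostly called macrophage left out as well, they were 12 and 11 of 2158. The excess of higher genes was thus nearly gone in the second of these repeats, which also tested fewer genes. PPM1L, a phosphatase, had 174 CPM against 41.2 (4.11, 2.76 to 6.65). ADGRF5, an adhesion receptor of endothelium, had 2.64 (1.85 to 3.91), and LPL, the lipoprotein lipase, had 131 against 56.0 (2.32, 1.58 to 3.55). ITGA6, CPM, ABLIM3, EPHB2 and DOCK4 were between 2.19 and 2.39. DPT, the fibroblast matrix protein dermatopontin, had 52.5 against 137 (0.39, 0.25 to 0.58), and LOXL2, a collagen cross-linking oxidase, had 0.42 (0.29 to 0.59). CMKLR2, NFATC2, JUN, AP2B1 and the unnamed ENSBTAG00000043567 and ENSBTAG00000053457 were between 0.46 and 0.52.

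Within macrophage-called nuclei, 16 of 952 genes (1.68%) were at least 2-fold higher and 4 (0.420%) at most 0.5 times as high. A second draw shared 10 and 2 of them. ACACA, the acetyl-CoA carboxylase of lipogenesis, had 563 CPM against 185 (3.01, 2.20 to 4.28), COL4A2, a basement membrane collagen, had 2.74 (1.83 to 4.34), and FABP4, a fatty acid-binding protein of adipocytes and capillaries, had 2.38 (1.67 to 3.50). COL6A3, a stromal collagen, had a ratio of 2.30 (1.61 to 3.40) and a UMI in 72.7% against 26.8% of nuclei. NAALADL2, TENM4, FBXL7 and EHBP1 were between 2.40 and 3.08. The complement receptor CR2 had 268 against 589 (0.46, 0.34 to 0.61), and CD86, a costimulatory molecule, had 134 against 265 (0.52, 0.32 to 0.78). CPM, FARS2, R3HDM2, MLXIP, CMKLR1 and WWP1 were between 0.46 and 0.52.

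Lists of general cell state had summed ratios between 0.55 and 1.38 over all nuclei at 7000 UMIs. Of all genes tested there, 1.45% were at least 2-fold higher and 0.845% at most 0.5 times as high. S phase genes had a summed ratio of 1.19 (1.11 to 1.28) and none of 10 past the fold. G2 and M phase genes had 1.23 (1.16 to 1.31) and 1 of 14 past it, which was ECT2, a regulator of cytokinesis, with 33.6 against 16.2 CPM (2.06, 1.36 to 3.22). The proliferation marker MKI67 had 31.1 against 25.6 CPM (1.21, 0.83 to 1.77). Transcription machinery genes had a sum of 1.03 (0.98 to 1.08), ribosomal protein genes 0.95 (0.88 to 1.03), and immediate early genes, which respond to stress and dissociation, 0.89 (0.84 to 0.95). Oxidative phosphorylation subunits encoded in the nucleus had 1.20 (1.14 to 1.26), and mitochondrially encoded genes had 0.55 (0.48 to 0.64), from 144 CPM against 260. Insulin signaling genes had 1.298 (1.24 to 1.36), adipogenic transcription factors 1.02 (0.99 to 1.05) and fatty acid uptake genes 1.38 (1.33 to 1.44), of which ACSL1 alone of 8 passed the fold. Within adipocyte-called nuclei fatty acid uptake genes had 1.26 (1.17 to 1.35).

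Markers of other cell types were scarce above and below the limits. Over all nuclei the summed ratio was 1.01 (0.86 to 1.18) for lymphocyte markers, 0.96 (0.73 to 1.26) for B cells, 0.90 (0.68 to 1.18) for mast cells, 1.15 (0.63 to 2.12) for mesothelial cells and 1.35 (0.99 to 1.86) for striated muscle. Schwann markers had 0.47 (0.28 to 0.74) and lymphatic endothelial markers 1.56 (1.27 to 1.94), at 110 CPM or less in each group. Erythroid markers had 1.42 (0.63 to 3.37). Genes of lipid-associated macrophages had 1.36 (1.28 to 1.44), and genes of macrophage fusion, a route to multinucleate cells, had 1.05 (0.90 to 1.22). Capillary, venous and arterial endothelial genes had 0.88 (0.85 to 0.92), 0.91 (0.83 to 0.99) and 0.76 (0.68 to 0.85). The set of TMEM178B, ADAM23, SRCIN1 and SPP1, chosen on these nuclei, had 1.302 (1.08 to 1.57). Of the nuclei above the limits, 52.9% (46.8 to 58.9) shared the wells of the later barcoding rounds with another nucleus of the Parse libraries, against 48.1% (45.9 to 50.3) below. The part of shared barcodes, free RNA and RNA content in these values was not tested.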

How the data were processed

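Nuclei of cow and rat fat were sequenced as single-nucleus RNA libraries. Per the study's methods, reads were assigned to cow or rat, cow reads were processed with split-pipe on ARS-UCD1.3, and doublets were identified with scDblFinder, whose calls were not used here. The values the authors deposited for the cow are raw counts of UMIs per gene and nucleus, with no normalization, and nuclei outside the study's limits were still among them. All cow nuclei (16827260 UMIs) were used.

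Counts were thinned without replacement to 1000 UMIs (numpy 2.4.6) and, for the comparison with deep nuclei, to 7000. A class was called from the most marker UMIs, with at least 2 and no tie. Ratios are of summed thinned UMIs as CPM, with 1 UMI added to each sum, over genes with at least 100 UMIs (40 within a class at 1000 UMIs), with exact Poisson or binomial 95% intervals from scipy 1.17.1. Medians have order-statistic intervals. Genes past the fold had a ratio of at least 2 or at most 0.5. Named genes were the 12 highest and 12 lowest over all nuclei, the 8 highest and 8 lowest within a class without class markers, the 10 with most UMIs and the genes of the lists. At 7000 UMIs the same rule was used, and single genes of the lists were singled out after their values were seen. Clusters (Leiden, 2000 variable genes, 30 components) and Scrublet were run with scanpy 1.11.5. The scripts were tested on simulated data.

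The limits, lists and rules were chosen with earlier results of these data known. The comparison at 7000 UMIs, the division at 15000 UMIs alone, the repeat without the 4 abundant genes and the repeats without clusters were added after the data were seen. Other alternatives were a thinning to 500 or 3000 UMIs, another random draw, other marker and count minimums, and other cluster resolutions.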

Additional observations from a re-analysis of the deposited data

How the results depend on the processing

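The adipocyte share above the limits stayed between 30.8% and 36.1% under the alternatives that kept all clusters. At 7000 UMIs without both clusters named below, 85 of 198 nuclei above the limits and 33 of 235 below were called adipocyte. The higher share of nuclei with a further class held its direction throughout. Leaving out the 4 abundant genes always went with a shallower thinning and another set of nuclei below the limits, and these changes were not told apart. Nuclei with 2 classes at 50% were 11.2% (7.76 to 15.6) above and 5.45% (3.49 to 8.07) below the limits without these genes, with 422 rather than 318 nuclei below and overlapping intervals. Nuclei carrying at least 2 classes were 40.9% above (17.0% below) at 500 UMIs, 96.0% (83.4%) at 3000 UMIs, 54.7% (25.2%) with at least 3 marker UMIs, 58.7% (33.1%) without the most abundant marker of each class and 65.2% (42.0%) without the 4 abundant genes at 700 UMIs. Median genes per nucleus were 393 at 500 UMIs, 1771 at 3000 UMIs and 600 without the 4 abundant genes. The ASPC share went below that of the other nuclei without the 4 abundant genes, at 28.6% against 29.5%. The macrophage share went above it, at 13.4% with 3000 UMIs, 9.42% with at least 3 marker UMIs and 9.78% without the most abundant marker. All of these ASPC and macrophage intervals overlapped.

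Counts of genes past the fold at 1000 UMIs depended on depth and on the filter, in the order all, ASPC-, adipocyte-, endothelial- and macrophage-called nuclei. At 500 UMIs the higher genes were 99, 107, 30, 128 and 18 and the lower 35, 34, 9, 74 and 21. Against nuclei with at least 7000 UMIs the higher genes were 27, 9, 14, 13 and 2 and the lower 17, 6, 12, 29 and 1. With no filter the higher genes were 18998, 25158, 23334, 28325 and 29192 and the lower 833, 394, 854, 299 and 263, because 1 UMI added to sums over unequal numbers of nuclei gives a ratio above 2 on its own. With at least 400 UMIs the higher genes were 36, 0, 0, 0 and 0 and the lower 11, 3, 6, 6 and 0, with 879, 100, 36, 121 and 14 genes tested. Without the 4 abundant genes the higher genes were 73 over all, 139 in ASPC-, 27 in adipocyte- and 204 in endothelial-called nuclei, and 103 were lower in ASPC-called nuclei. At 3000 UMIs 166 were higher in ASPC- and 139 in adipocyte-called nuclei. In macrophage-called nuclei 114 were higher with the nuclei over 15000 UMIs only, and 124 when nuclei were divided at 15000 UMIs alone. CCDC188 had a ratio of 1.07 in another random draw, and CLEC1A 1.10 at 500 UMIs, against 0.31 each at 1000 UMIs. The cause of the other changes was not tested.

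At 7000 UMIs, lower genes in macrophage-called nuclei were 9 in another draw. In endothelial-called nuclei they were 76 without the 67-nucleus cluster and 61 also without the cluster mostly called macrophage. Without both clusters 156 genes were higher and 117 lower over all nuclei, and 12 were higher and 11 lower in ASPC-called nuclei.

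No paired analysis was possible because the cow was measured in 1 library, and for the same reason no replicate could be left out. Few nuclei stood behind the values of mural-called nuclei (5 above the limits at 7000 UMIs) and of adipocyte-called nuclei below the limits at 7000 UMIs (33), and few UMIs behind the lowest genes at 1000 UMIs.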
